A study of Saccharomyces cerevisiae with 14 samples.

Results

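The comparison described here is between the H3 wild type (H3WT) and the H4 wild type (H4WT) of budding yeast, the strains that serve as controls for a histone H3 and a histone H4 tail deletion. Its members were all arrays titled as these wild types, 7 of the 14 arrays of the series, 4 H3WT and 3 H4WT. H3WT cells carried their histone genes on a LEU2-marked plasmid and were harvested in mid-log phase from complete synthetic medium (CSM) without leucine and uracil. H4WT cells carried theirs on a TRP1-marked plasmid and were harvested in mid-log phase from CSM without tryptophan and uracil. The strains are described as congenic, and the labels give neither further genotype nor the copy number of the plasmids. Marker, plasmid and medium therefore changed together, and their parts in any difference cannot be told apart. The matching tail deletions, H3del(1-28) on 4 arrays and H4del(2-26) on 3 arrays, carried the same marker and medium pairing. Their arrays also entered the fit, where all 4 groups share 1 estimate of the spread, and their values are set beside those of the wild types at the end.

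Histones H3 and H4 form the core tetramer of the nucleosome, and yeast encodes each in a pair of gene copies, HHT1 and HHT2 for H3 and HHF1 and HHF2 for H4. Mutant histones are commonly studied by supplying the gene on a plasmid that the cell must keep to grow without a nutrient. LEU2 encodes isopropylmalate dehydrogenase of leucine synthesis, and TRP1 encodes phosphoribosylanthranilate isomerase of tryptophan synthesis. Yeast senses amino acid supply through Leu3, which is activated by a leucine precursor, and through Gcn4, the activator of general amino acid control.

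Each array gave a deposited MAS5 signal intensity, on a linear scale, for 9275 probe sets other than controls, and 6492 were bright enough to be tested. Spearman correlations were 0.970 to 0.990 among H3WT arrays, 0.968 to 0.985 among H4WT arrays and 0.962 to 0.979 between the groups. The ratio of 3′ to 5′ actin signal, a measure of RNA integrity, was 1.56 to 2.15 on H3WT arrays and 1.48 to 1.82 on H4WT arrays. The 10 ribosomal RNA control probe sets averaged 7.39 to 9.21 (log2 signal) on H3WT arrays and 7.83 to 9.46 on H4WT arrays. Run records placed the arrays on 5 hybridization days. H3WT replicates 1 and 2 were on day 1 and replicate 4 on day 5, while H4WT replicate 1 was on day 2 and replicate 2 on day 3. Day 4 alone held both wild types, as replicate 3 of each. It was also the only day with both H3 and H4 strains, tail deletions included. A fit with day as a fixed block therefore links H3WT to H4WT only through the day 4 arrays, mutant ones among them. Day-block and day 4 values are thus not separate checks. Differences are given as H3WT minus H4WT on the log2 scale, with limma's standard error and its adjusted p. Values named "day 4" are single differences of 1 array against 1, without error.

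The plasmid markers differed in the directions of the labels. LEU2 (probe set 6909_at, chromosome III) had signals of 21601, 21556, 20953 and 18828 on H3WT arrays, against 3511.8, 2730.7 and 7182.0 on H4WT arrays. Every H3WT array lay above every H4WT array, and the highest H4WT value was that of day 4. The means were 20735 ± 1305 in H3WT (SD, n = 4) and 4475 ± 2377 in H4WT (SD, n = 3), a log2 difference of 2.33 ± 0.36 (limma, adjusted p = 0.00154) or 5.03-fold. With hybridization day as a block the LEU2 difference was 1.30 (adjusted p = 0.00251), and on day 4 it was 1.54.

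Both other LEU2 probe sets showed larger differences. Probe set 2436_g_at gave 5714.5, 4250.5, 7765.3 and 4826.9 on H3WT arrays, against 535.8, 257.1 and 923.0 on H4WT arrays, a log2 difference of 3.40 ± 0.42 (limma, adjusted p = 0.000318). Probe set 2437_s_at gave 9422.5, 7985.8, 10864 and 9113.6 on H3WT arrays, against 513.7, 436.5 and 1652.4 on H4WT arrays, a difference of 3.66 ± 0.43 (limma, adjusted p = 0.000244). These were the largest differences toward H3WT among all tested probe sets. All 3 probe sets put H4WT replicate 3 highest within its group. LEU2 signal was thus present on H4WT arrays too, at no less than 257.1, although those cells carried no LEU2 plasmid by their labels.

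TRP1 (probe set 6468_at, chromosome IV) gave the opposite picture. Its signals were 1833.4, 1922.3, 1914.1 and 2118.8 on H3WT arrays, against 9054.0, 13809 and 17619 on H4WT arrays. The H3WT arrays lay within a narrow band, while the H4WT arrays spread over a wider range. The log2 difference of TRP1 was -2.73 ± 0.26 (limma, adjusted p = 5.84e-05), or 6.64-fold lower in H3WT, and it was -2.88 with the day block and -3.19 on day 4.

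**Figure D1:**
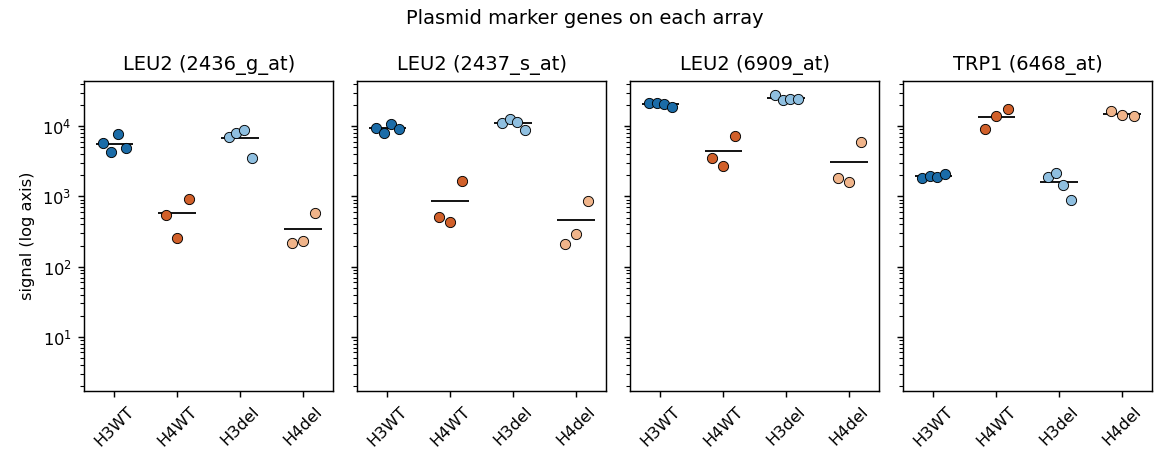
Signals of the LEU2 probe sets and of TRP1 on each of the 14 arrays (log axis), by group, with points for arrays and a bar for the group mean. LEU2 was higher on H3WT arrays than on H4WT arrays at each of its 3 probe sets, TRP1 was lower on H3WT arrays, and the tail deletions showed the same order.

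Beyond the markers themselves, no gene of their synthesis pathways passed the test. Of 13 genes of leucine and branched-chain amino acid synthesis, all tested, LEU2 alone passed the test, and the list's median was 0.01 against 0.06 over all 5121 genes tested. Across all genes 153 passed, which is 2.99%, with 65 higher in H3WT (1.27%) and 88 lower (1.72%). LEU1, isopropylmalate isomerase, read 4330.5, 4227.9, 5718.5 and 6432.5 on H3WT arrays, against 3084.8, 1675.1 and 4753.8 on H4WT arrays. The LEU1 groups overlapped at the day 4 H4WT array, and the difference was 0.81 ± 0.32 (limma, adjusted p = 0.222). LEU1 did pass without the arrays of day 4 (limma, adjusted p = 0.0215). It did not with the replicate block (limma, adjusted p = 0.0502) or the day block (0.09, limma, adjusted p = 0.863). BAT1, the mitochondrial branched-chain aminotransferase, differed by -0.29 ± 0.16 (limma, adjusted p = 0.372), and LEU4, the isopropylmalate synthase, by -0.08 ± 0.16 (limma, adjusted p = 0.872). Among 8 targets of Leu3, LEU2 was again the sole member to pass, with a list median of 0.02.

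Tryptophan and aromatic amino acid synthesis showed the same form. Of 13 genes, TRP1 alone passed the test and the median was -0.14. TRP5, tryptophan synthase, read 12809, 12769, 10946 and 12202 on H3WT arrays, against 14348, 13890 and 17767 on H4WT arrays. The TRP5 groups did not overlap, but the difference of -0.33 ± 0.11 did not pass (limma, adjusted p = 0.150). TRP4, anthranilate phosphoribosyltransferase, differed by -0.42 ± 0.20 (limma, adjusted p = 0.321) and TRP2, a subunit of anthranilate synthase, by 0.16 ± 0.17 (limma, adjusted p = 0.704). None of 10 genes of NAD synthesis from tryptophan passed, at a median of 0.03.

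General amino acid synthesis leaned toward H4WT. Of 37 tested Gcn4-dependent synthesis genes none was higher in H3WT and 3 were lower, all of the arginine branch, against 1.72% of all genes. The list's median was -0.32. With the replicate number as a block 7 were lower, in a fit where 401 of all genes passed (7.83%), 188 of them lower. ARG1, argininosuccinate synthetase, read 8220.4, 9561.7, 11494 and 9453.9 on H3WT arrays, against 15590, 17377 and 20968 on H4WT arrays, a difference of -0.89 ± 0.17 (limma, adjusted p = 0.00690). ARG3, ornithine carbamoyltransferase, was lower, at -1.24 ± 0.25 (limma, adjusted p = 0.00900), and ARG7, which makes ornithine, was lower, at -1.12 ± 0.21 (limma, adjusted p = 0.00566). ARG7 did not pass with the day block, where its difference was -0.81 (adjusted p = 0.0822).

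Of 24 tested amino acid permease and sensor genes TAT1, a transporter of tyrosine, tryptophan and branched-chain amino acids, was the one to pass. It read 901.5, 919.9, 1133.5 and 922.1 on H3WT arrays, against 2566.9, 2353.7 and 1564.8 on H4WT arrays, a difference of -1.12 ± 0.20 (limma, adjusted p = 0.00418). The nearest values of the TAT1 groups were both from day 4, where the difference was -0.46, and with the day block it was -0.83 (adjusted p = 0.124). Among 8 genes of aromatic amino acid breakdown the pyruvate decarboxylases PDC5 and PDC6 were lower in H3WT, PDC5 at -1.13 ± 0.19 (limma, adjusted p = 0.00330). Over all genes 2.99% passed in either direction and 1.72% as lower. PDC6, the minor isozyme, read 426.3, 576.3, 471.8 and 518.1 on H3WT arrays, against 2676.4, 2099.1 and 2976.5 on H4WT arrays. The PDC6 groups were far apart, with a difference of -2.33 ± 0.23 (limma, adjusted p = 7.04e-05) or 5.03-fold.

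Other nutritional markers were examined because a congenic pair could differ at them. URA3, of uracil synthesis, read 119.9, 135.1, 105.5 and 106.1 on H3WT arrays, against 215.9, 165.6 and 124.3 on H4WT arrays. These were low signals in both groups, although both media lacked uracil, and the groups overlapped (-0.45 ± 0.21, limma, adjusted p = 0.303). None of 14 pyrimidine genes passed the test. Of 9 marker genes, MET17 of sulfur assimilation was lower in H3WT besides TRP1, at -0.52 ± 0.13 (limma, adjusted p = 0.0403), but not with the day block (adjusted p = 0.251).

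HIS3, of histidine synthesis, had probe sets that disagreed about the test. The brighter, 8359_at, read 10922, 11933, 8826.5 and 9650.1 on H3WT arrays, against 15814, 17315 and 11858 on H4WT arrays, a difference of -0.53 ± 0.16 (limma, adjusted p = 0.0794, and 0.00737 with the replicate block). The dimmer, 8360_at, differed by -0.85 ± 0.16 (limma, adjusted p = 0.00695). ADE2, of purine synthesis, differed by -0.66 ± 0.24 (limma, adjusted p = 0.181, and 0.0136 with the replicate block). Of 36 annotated genes next to LEU2, TRP1, URA3, HIS3 and the histone gene pairs, 3 on each side, 25 were tested and none passed, with differences of -0.67 to 0.73.

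The histone genes themselves were not told apart between the wild types. Probe sets shared by HHT1 and HHT2 differed by -0.32 ± 0.14 (7368_i_at, limma, adjusted p = 0.273) and -0.36 ± 0.27 (7369_s_at, limma, adjusted p = 0.556). On the brighter one the H3WT arrays read 26610, 26352, 27564 and 22390, and the H4WT arrays read 26207, 31475 and 40189. The probe set shared by HHF1 and HHF2, 8911_s_at, read 6146.1, 4753.6, 5313.0 and 7665.3 on H3WT arrays, against 6537.3, 7119.1 and 8233.7 on H4WT arrays. Its groups overlapped, with a difference of -0.31 ± 0.22 (limma, adjusted p = 0.530). None of the 5 histone genes with a tested probe set of their own passed. HTB2, a histone H2B gene, differed by 0.51 ± 0.18 (limma, adjusted p = 0.173) and HTZ1, the H2A.Z variant, by 0.51 ± 0.22 (limma, adjusted p = 0.266). With the replicate block both passed, at adjusted p = 0.0294 for HTB2 and 0.0397 for HTZ1. The arrays cannot tell plasmid transcripts of H3 and H4 from chromosomal ones.

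Mating type was checked from marker genes, since the labels give none. The alpha pheromone gene MF(ALPHA)1 read 18383 to 20489 on H3WT arrays and 17731 to 25946 on H4WT arrays, and none of 4 alpha-specific genes passed the test. Nor did any of the 4 tested a-specific or the 10 haploid-specific genes. Probe set 6959_s_at, shared by MATALPHA1 and HMLALPHA1, read 828.2, 792.8, 940.8 and 1244.5 on H3WT arrays, against 379.7, 411.9 and 553.6 on H4WT arrays. That difference of 1.05 ± 0.23 passed (limma, adjusted p = 0.0189), but not with the day block (adjusted p = 0.0545), while the brighter probe set of the same pair, 6961_g_at, differed by 0.67 ± 0.23 (limma, adjusted p = 0.143).

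Transcripts of the mitochondrial genome were present in both strains. COX1, a cytochrome oxidase subunit, read 1653.3, 1611.0, 3694.8 and 1046.4 on H3WT arrays, against 1893.6, 1181.2 and 4288.6 on H4WT arrays. The highest value of each group was that of day 4, and neither COX1 nor OLI1, the other tested gene of the 8, passed.

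Over all probe sets, 221 of 6492 passed the test, which is 3.40%, with 80 higher in H3WT (1.23%) and 141 lower (2.17%). The higher ones had a median difference of 0.91, with 29 at least 2-fold, and the lower ones a median of -1.23, with 104 at least 2-fold. Groups did not overlap for 220 of the 221, while 884 of all tested probe sets (13.6%) had no overlap. Among the 221, 163 had a single annotated gene, 24 had several and 34 had none. The median of all tested probe sets was 0.03, on arrays that had been deposited scaled to the same trimmed mean. Fitted on the 7 wild-type arrays alone, with 5 residual degrees of freedom, 100 probe sets passed, 22 higher in H3WT and 78 lower.

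The count depended on how day and replicate number were treated. Deviations from the group means correlated at 0.268 to 0.501 between wild types of the same replicate number, and at -0.402 to 0.244 between other pairs. The 0.501 was that of replicate 3, where both arrays were on day 4, so number and day are not separate there. With the replicate number as a block 511 probe sets passed (7.87%), the 221 among them. With hybridization day as a fixed block 247 passed (3.80%), of which 26 were among the 80 higher ones and 104 among the 141 lower ones. Without the arrays of day 4, 669 passed (10.3%), of which 474 (70.9%) had the same sign on day 4, against 57.8% of all tested probe sets. For the 288 of these that were at least 2-fold the share was 75.7%, and for the 21 at least 4-fold it was 85.7%. Their day 4 differences had medians of 0.31 for those higher in H3WT and -0.38 for those lower, against 0.92 and -0.96 on the other days, where they had been selected and are therefore larger by choice.

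**Figure D2:**
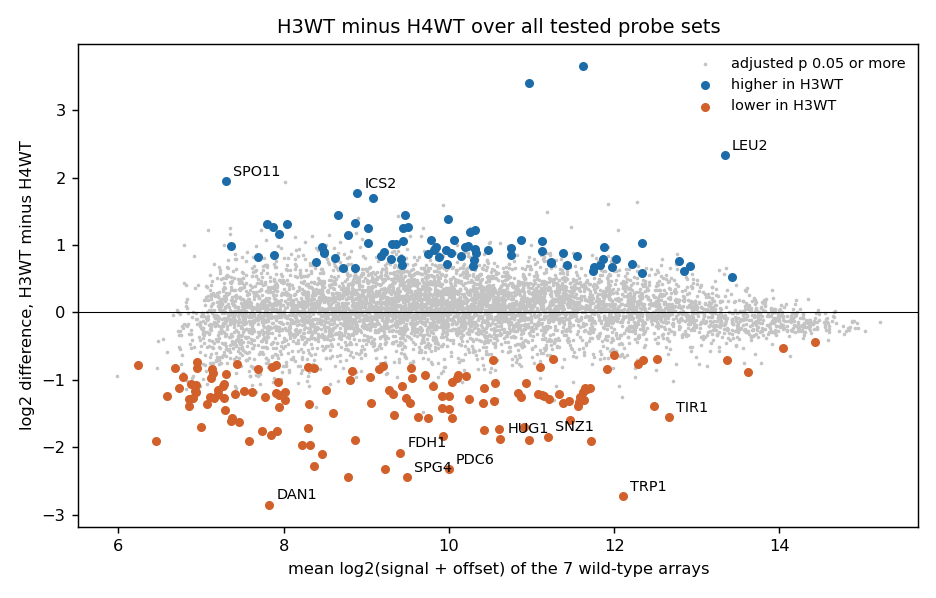
Log2 difference of H3WT minus H4WT (vertical axis) against the mean log2 signal of the 7 wild-type arrays (horizontal axis), 1 point for each of the 6492 tested probe sets. The 80 that passed above 0 (blue) and the 141 below 0 (orange) spread over the whole range of brightness, with LEU2 and TRP1 among the outermost.

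Among genes past the test whose groups did not overlap, the 12 with the largest differences toward H3WT were LEU2, SPO11, ICS2, ROQ1, CUR1, OPI10, COG7, YET2, QCR10, SRD1, YGL108C and GPT2. SPO11, which makes the DNA breaks of meiotic recombination, read 263.1, 270.1, 250.8 and 276.7 on H3WT arrays, against 73.2, 59.2 and 39.7 on H4WT arrays. All H4WT values lay far below the H3WT values, with a difference of 1.95 ± 0.20 (limma, adjusted p = 8.60e-05), 2.13 with the day block and 2.24 on day 4. CUR1, a chaperone that sorts misfolded proteins, read 1606.2, 1889.0, 1429.7 and 1232.7 on H3WT arrays, against 444.2, 602.7 and 698.6 on H4WT arrays, a difference of 1.38 ± 0.21 (limma, adjusted p = 0.00120).

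CUR1, SPO11, LEU2 and SRD1 also passed with the day block, and the other 8 of the 12 did not. From the wild-type arrays alone YGL108C, COG7, OPI10 and ROQ1 did not pass. ROQ1, a regulator of protein quality control, read 1130.2, 1365.5, 534.2 and 721.1 on H3WT arrays, against 189.2, 189.8 and 480.2 on H4WT arrays. Its day 4 arrays were the lowest H3WT and the highest H4WT value, so the difference of 1.70 ± 0.45 (limma, adjusted p = 0.0481) stood at 0.15 on day 4. OPI10 had the same form, with 1.33 ± 0.29 (limma, adjusted p = 0.0160) in the fit and 0.19 on day 4. ICS2 differed by 1.76 ± 0.30 (limma, adjusted p = 0.00263) and by 0.87 on day 4.

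**Figure D3:**
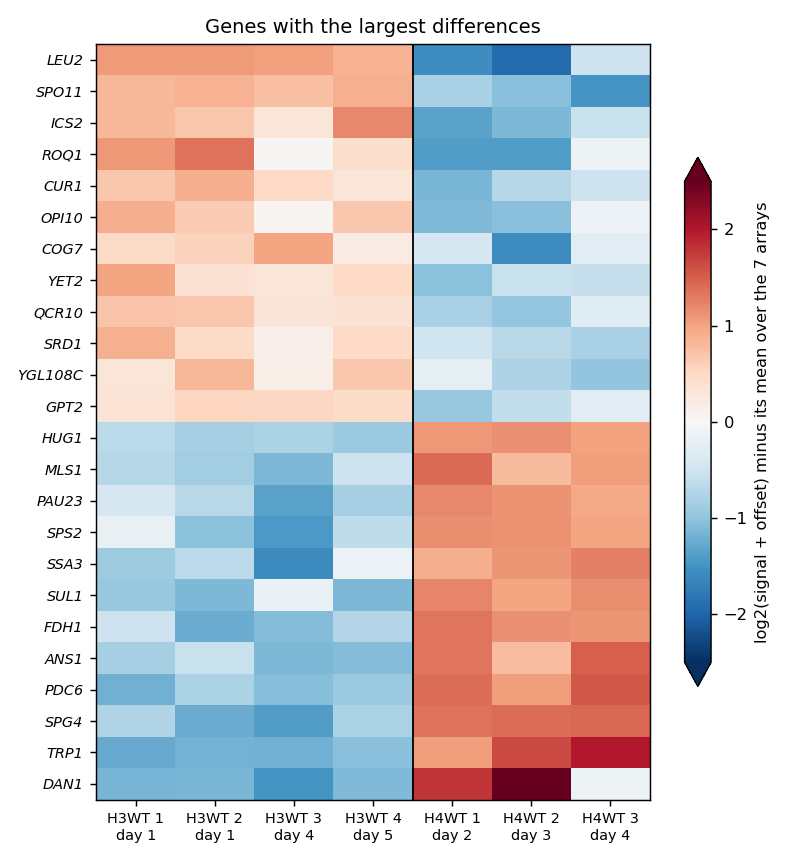
Signals of the 24 named genes with the largest differences past the test on the 7 wild-type arrays, as log2(signal + offset) minus the gene's mean over these arrays (red above, blue below). Columns are arrays with their hybridization day, H3WT left of the line. ROQ1 shows day 4 arrays close to each other (0.15), while PDC6 and SPO11 keep their difference there.

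Respiratory chain genes included 3 of 31 that were higher in H3WT, against 1.27% of all genes, at a list median of 0.34. SDH2 and SDH4, subunits of succinate dehydrogenase, were higher by 0.96 ± 0.20 (limma, adjusted p = 0.0105) and 0.79 ± 0.17 (limma, adjusted p = 0.0154). QCR10, of the cytochrome bc1 complex, read 2064.8, 2048.4, 1589.2 and 1629.3 on H3WT arrays, against 707.1, 636.1 and 1013.5 on H4WT arrays, a difference of 1.22 ± 0.21 (limma, adjusted p = 0.00278). With the day block, under which 178 of all genes passed (3.48%), none of the 31 did, and SDH4 did not from the wild-type arrays alone. With the replicate block, under which 7.83% of all genes passed, 7 were higher, and the list's median on day 4 was 0.03.

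Phospholipid synthesis held 3 higher genes of 13, against 1.27% higher over all genes tested. INO1, the inositol-3-phosphate synthase, read 9103.4, 7446.2, 9111.2 and 9774.3 on H3WT arrays, against 4860.9, 5959.6 and 4754.2 on H4WT arrays. Its difference was 0.77 ± 0.17 (limma, adjusted p = 0.0191) and it passed with the day block at 1.21 (adjusted p = 0.00405). INO4, an activator of INO1, was higher by 0.92 ± 0.17 (limma, adjusted p = 0.00535), and CHO2, of phosphatidylcholine synthesis, by 0.62 ± 0.16 (limma, adjusted p = 0.0429). Neither passed with the day block, and none of the 3 passed from the wild-type arrays alone. The list's median was 0.29 in the fit and 0.35 on day 4.

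Single members of other lists also passed as higher in H3WT, where 1.27% of all genes did. IMD2, which makes guanine nucleotides, was higher by 0.70 ± 0.12 (limma, adjusted p = 0.00328), at its brightest probe set, 11264_f_at. Its other probe sets did not pass, with 0.91 ± 0.28 at 11263_f_at (limma, adjusted p = 0.0914) and 0.65 ± 0.19 at 4323_f_at (limma, adjusted p = 0.0772), where the groups overlapped and the day 4 difference was -0.14. Of 19 tested purine and one-carbon genes IMD2 alone passed, and only 3 had a difference above 0, at a list median of -0.48. PRE4, a proteasome subunit, was higher by 0.71 ± 0.16 (limma, adjusted p = 0.0227), the one of 32 proteasome genes to pass. Yet 30 of the 32 had a difference above 0, against 2931 of all 5121 genes. The proteasome list's median was 0.22 in the fit and 0.25 on day 4. ERG28 of ergosterol synthesis was higher by 0.67 ± 0.17 (limma, adjusted p = 0.0463), CTS1, a chitinase, by 0.53 ± 0.13 (limma, adjusted p = 0.0421), and NTH1, a trehalase, by 0.58 ± 0.15 (limma, adjusted p = 0.0394). ERG28, CTS1 and NTH1 were each the only higher member past the test, among 24 ergosterol, 17 cell separation and 30 stress genes. ERG28, CTS1 and NTH1 did not pass with the day block, and these 3 and PRE4 did not pass from the wild-type arrays alone.

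Among genes past the test whose groups did not overlap, the 12 with the largest differences toward H4WT were DAN1, TRP1, SPG4, PDC6, ANS1, FDH1, SUL1, SSA3, SPS2, PAU23, MLS1 and HUG1, and all 12 also passed with the day block. DAN1, a cell wall mannoprotein of anaerobic cells, read 84.3, 86.3, 63.7 and 88.1 on H3WT arrays, against 764.3, 2128.0 and 189.6 on H4WT arrays. The H4WT values of DAN1 were far apart, with day 4 the lowest, and the difference was -2.86 ± 0.50 (limma, adjusted p = 0.00360). SPG4, named for survival in stationary phase, read 410.2, 285.6, 254.6 and 397.5 on H3WT arrays, against 1832.8, 1865.3 and 1930.3 on H4WT arrays, a difference of -2.45 ± 0.32 (limma, adjusted p = 0.000458).

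FDH1, formate dehydrogenase, was lower in H3WT at both of its tested probe sets. The brighter, 8142_s_at, read 456.8, 271.8, 304.7 and 390.6 on H3WT arrays, against 1693.8, 1479.9 and 1438.7 on H4WT arrays, a difference of -2.08 ± 0.19 (limma, adjusted p = 5.46e-05). The other, 8020_s_at, differed by -1.97 ± 0.31 (limma, adjusted p = 0.00154).

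Cell wall genes linked to anaerobic growth were lower in H3WT at several members. Of 15 tested genes of sterol uptake and the hypoxic cell wall none was higher in H3WT and 6 were lower. The list's median was -0.81, and over all genes 1.72% were lower. TIR1, a cold- and anaerobiosis-induced mannoprotein, read 4597.0, 4273.2, 3996.2 and 3469.2 on H3WT arrays, against 11979, 14620 and 9796.0 on H4WT arrays, a difference of -1.56 ± 0.23 (limma, adjusted p = 0.00120). TIR4 was lower, at -1.71 ± 0.23 (limma, adjusted p = 0.000480) and TIR2 at -0.81 ± 0.17 (limma, adjusted p = 0.0154). All 6 passed with the day block, and TIR2 did not pass from the wild-type arrays alone.

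Other members of the list did not pass. HEM13 of heme synthesis differed by 0.63 (limma, adjusted p = 0.24), CYC7, a cytochrome c isoform, by 0.89 (limma, adjusted p = 0.31), and ANB1, a translation factor isoform, by -0.85 (limma, adjusted p = 0.13). AUS1 and PDR11, the sterol importers, differed by -0.40 (limma, adjusted p = 0.36) and -0.12 (limma, adjusted p = 0.82).

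The PAU genes, a subtelomeric family of cell wall proteins with near-identical sequences, were looked at as a whole after 2 listed members had been seen to differ. All 21 tested PAU probe sets, 10 of 1 gene and 11 of several, were lower in H3WT and passed the test, against 2.17% of all probe sets. Their differences ran from -1.90 to -1.05, with a median of -1.31, and the groups overlapped at none of them. PAU23 read 2508.2, 2069.6, 1317.6 and 1885.4 on H3WT arrays, against 7697.1, 7316.7 and 6456.3 on H4WT arrays, a difference of -1.90 ± 0.27 (limma, adjusted p = 0.00110). All 21 passed with the day block as well, and their median on day 4 was -1.61. Probes of this family read one another's transcripts, so the 21 are not separate observations and no single PAU gene can be credited with its value.

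**Figure D4:**
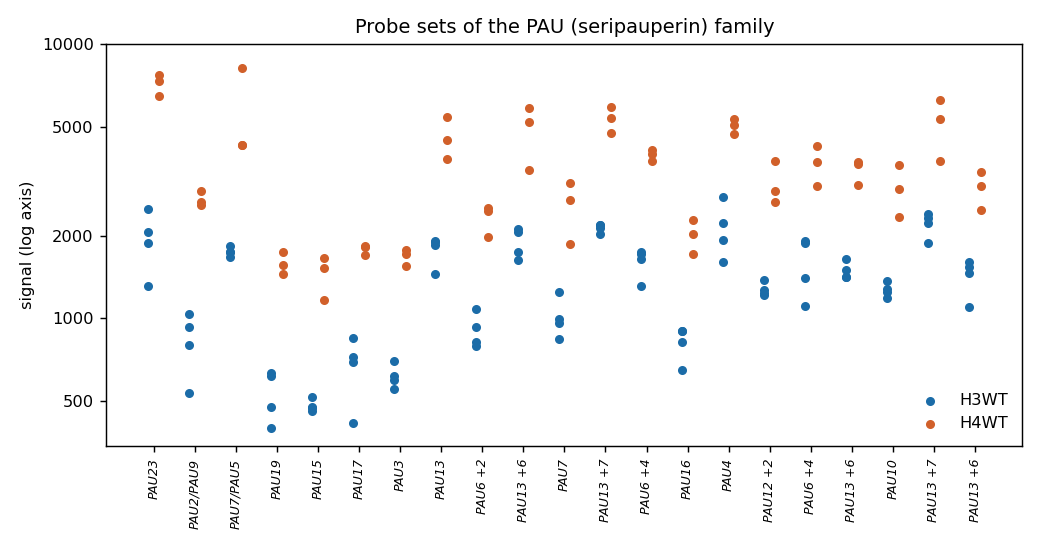
Signals of the 21 tested PAU probe sets (log axis), with 1 point per array, H3WT left and H4WT right at each probe set, ordered by their difference. A label such as PAU13 +6 marks a probe set annotated to that gene and 6 others. Every H3WT point lies below every H4WT point of the same probe set.

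Genes that yeast represses on glucose included 4 of 13 that were lower in H3WT and none higher, at a median of -0.46. The share lower over all genes was 1.72%. MLS1, malate synthase, read 265.6, 236.4, 195.5 and 301.6 on H3WT arrays, against 1222.8, 790.8 and 935.4 on H4WT arrays, a difference of -1.90 ± 0.25 (limma, adjusted p = 0.000470). ADH2, the alcohol dehydrogenase that consumes ethanol, read 2295.0, 2242.8, 1652.1 and 1981.2 on H3WT arrays, against 6511.6, 4221.8 and 4951.9 on H4WT arrays, a difference of -1.34 ± 0.20 (limma, adjusted p = 0.00120). CAT2, carnitine acetyltransferase, was lower, at -1.36 ± 0.23 (limma, adjusted p = 0.00330). FBP1, of gluconeogenesis, was lower, at -1.20 ± 0.21 (limma, adjusted p = 0.00360) but did not pass with the day block (adjusted p = 0.0596). ICL1, the partner of MLS1 in the glyoxylate cycle, differed by -0.25 (limma, adjusted p = 0.51) and PCK1 by -0.46 (limma, adjusted p = 0.26).

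Of 30 tested heat shock and stress genes 3 were lower and NTH1 was higher, against 1.72% lower and 1.27% higher over all genes. The list's median was 0.34 in the fit and -0.10 on day 4. With the day block, under which 3.48% of all genes passed, 4 of the list were lower and none was higher. SSA3, an inducible Hsp70 chaperone, read 86.5, 104.9, 46.2 and 155.5 on H3WT arrays, against 341.8, 394.3 and 440.7 on H4WT arrays, a difference of -1.91 ± 0.34 (limma, adjusted p = 0.00377). Its relative SSA4 was lower, at -1.21 ± 0.27 (limma, adjusted p = 0.0185) and GRE1, a hydrophilin, at -1.35 ± 0.24 (limma, adjusted p = 0.00377). Of 11 genes of the DNA damage response, HUG1, an inhibitor of ribonucleotide reductase, read 972.2, 869.4, 901.2 and 811.5 on H3WT arrays, against 3323.0, 3455.1 and 3138.8 on H4WT arrays. HUG1 was lower, at -1.88 ± 0.21 (limma, adjusted p = 0.000144) and RNR3, a ribonucleotide reductase subunit, at -1.49 ± 0.23 (limma, adjusted p = 0.00155). The other 9 did not pass.

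Some vitamin genes were lower in H3WT, while most of those tested did not pass. The share lower among all genes was 1.72%. SNZ1, of vitamin B6 synthesis, read 1349.4, 1609.8, 1306.4 and 1126.5 on H3WT arrays, against 5189.1, 5264.9 and 4173.5 on H4WT arrays, a difference of -1.85 ± 0.19 (limma, adjusted p = 9.31e-05). Its divergent neighbour SNO1 was lower, at -1.71 ± 0.21 (limma, adjusted p = 0.000296), and these were 2 of 5 tested vitamin B6 genes. THI4, of thiamine synthesis, was lower, at -1.73 ± 0.26 (limma, adjusted p = 0.00120) and was the one of 9 thiamine genes to pass. BIO5 and BIO4 of biotin uptake and synthesis were lower, at -1.07 ± 0.19 (limma, adjusted p = 0.00360) and -1.05 ± 0.22 (limma, adjusted p = 0.0113), 2 of 6 in that list. BIO4 did not pass with the day block (adjusted p = 0.107), and neither BIO5 nor BIO4 passed from the wild-type arrays alone.

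Of 24 sulfur and methionine genes SUL1, a sulfate permease, was lower, at -1.97 ± 0.31 (limma, adjusted p = 0.00172) besides MET17. This count and those below stand beside 1.72% lower and 1.27% higher over all genes. GDH3, a glutamate dehydrogenase, was lower, at -1.23 ± 0.19 (limma, adjusted p = 0.00170), the one of 23 nitrogen-repressed genes. The adhesins FLO11 and HPF1 were lower, at -1.15 ± 0.22 (limma, adjusted p = 0.00621) and -0.77 ± 0.18 (limma, adjusted p = 0.0228), 2 of 7 in their list, and HPF1 did not pass from the wild-type arrays alone. Among 11 tested meiosis and sporulation genes SPO11 was higher and 3 were lower, SPS2 at -1.91 ± 0.28 (limma, adjusted p = 0.00120), SPS1 at -1.10 ± 0.23 (limma, adjusted p = 0.0133) and SPO75 at -0.79 ± 0.20 (limma, adjusted p = 0.0364). SPO75 did not pass with the day block (adjusted p = 0.240), SPS1 did not from the wild-type arrays alone, and SPS2 and SPO75 were too dim there to be tested. SPS2 signals were 60.1, 26.4, 15.5 and 39.5 on H3WT arrays, against 179.9, 174.1 and 156.2 on H4WT arrays, which is low in both groups.

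Lists with no member past the test included 58 ribosome biogenesis genes, 26 iron genes, 17 glycolytic genes, 16 pheromone-induced genes, 12 phosphate genes, 10 cyclins and 9 hexose transporters. The ribosome biogenesis list had a median of -0.22 in the fit and 0.28 on day 4. Medians of the 16 nuclear chromosomes spanned 0.32, from -0.08 on chromosome I to 0.24 on chromosome VI, where the median standard error of a chromosome's value was 0.08. 

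The tail deletions carried the same marker and medium difference on other arrays, together with their deletions. They also shared most of the hybridization days, since H3del was on days 1, 1, 4 and 5, as H3WT was, and H4del on days 2, 2 and 4 beside H4WT on days 2, 3 and 4. Day and strain are thus confounded in the same way in both comparisons, and agreement between them is not free of the day. H3del minus H4del gave 1555 probe sets past the test (24.0%), 1031 higher in H3del (15.9%) and 524 lower (8.07%). Of the 221 probe sets of the wild types, 98 were among these, which is 44.3% of the 221 and 6.30% of the 1555. Of the 98, 84 went the same way, while over all tested probe sets, passing or not, 62.7% had the same sign. Both comparisons use the same estimate of each probe set's spread, so passing in one is not independent of passing in the other. LEU2 was 3.26 higher in H3del than in H4del (limma, adjusted p = 4.75e-05), and TRP1 was lower in H3del, at -3.29 (limma, adjusted p = 1.21e-06). H4del differed from the other groups in ways that bear on this reading. COX1 signals were 2471.2, 2021.0, 4257.2 and 1324.9 on H3del arrays, against 4.8, 4.1 and 4.6 on H4del arrays, and 9 of 10 haploid-specific genes were lower in H4del than in H3del. The part of these features in the mutant difference was not tested.

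Some wild-type differences had the same sign and passed between the mutants. JLP1, SRY1, PAU7 and TIR2 are among the genes most like TRP1 over all 14 arrays, mutants included. That choice favours the same direction between the mutants, so their passing there is no separate check. JLP1, a sulfonate dioxygenase, differed by -1.77 ± 0.23 between the wild types (limma, adjusted p = 0.000456) and by -1.51 between H3del and H4del (limma, adjusted p = 0.000559). SRY1, a hydroxyaspartate dehydratase, differed by -1.25 ± 0.23 between the wild types (limma, adjusted p = 0.00488) and by -1.64 between H3del and H4del (limma, adjusted p = 0.000355), but its wild-type difference did not pass with the day block, at -0.74 (adjusted p = 0.0616). CUR1 was 1.13 higher in H3del than in H4del (limma, adjusted p = 0.00177), and HUG1, PAU7, SNO1 and TIR2 were lower (limma, adjusted p = 0.00237, 0.00120, 0.000247 and 0.00268). Of the 21 PAU probe sets 17 were lower in H3del than in H4del and passed, with a median of -0.71 over the 21.

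Others had the opposite sign between the mutants, or did not pass there. FDH1, at -2.08 between the wild types, was 2.49 higher in H3del than in H4del (limma, adjusted p = 7.34e-07), with signals of 3833.4, 3602.5, 4037.1 and 4649.5 on H3del arrays, against 682.7, 665.6 and 757.7 on H4del arrays. MLS1 was 1.39 higher in H3del (limma, adjusted p = 0.00147), SSA3 1.13 higher (limma, adjusted p = 0.0258), BIO4 1.24 higher (limma, adjusted p = 0.00125) and ADH2 0.60 higher (limma, adjusted p = 0.0392). SPO11 read 255.0, 239.6, 238.9 and 252.0 on H3del arrays, against 284.8, 394.5 and 287.0 on H4del arrays, so H4WT stood alone with low SPO11. PDC6 differed by -0.02 between mutants (limma, adjusted p = 0.953).

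**Figure D5:**
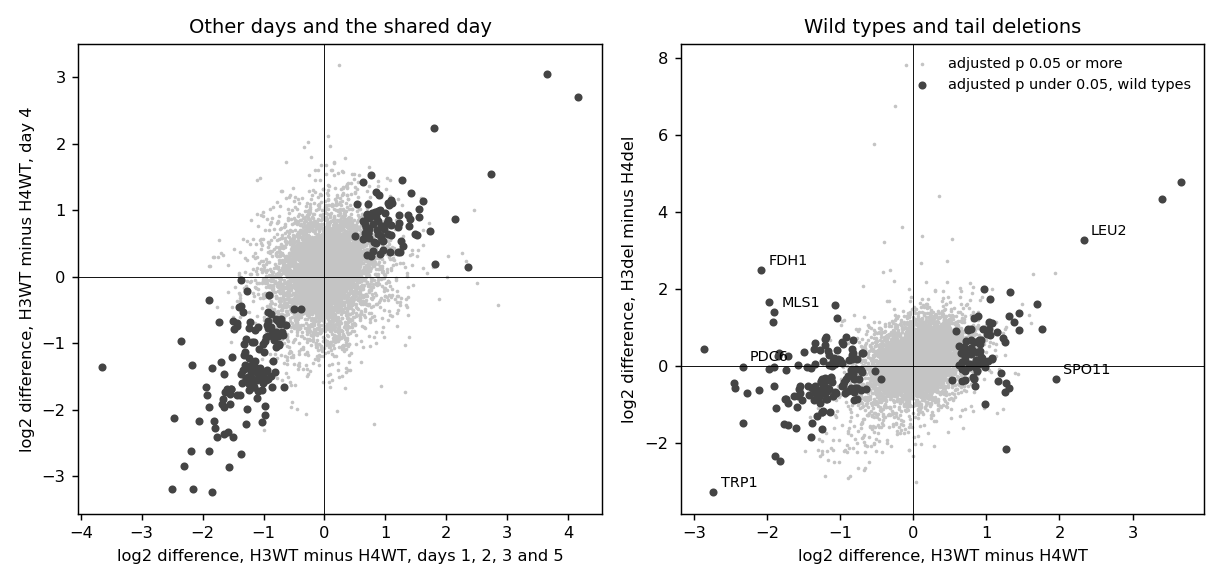
Left, the log2 difference of H3WT minus H4WT on day 4 against the same difference on the other days. Right, H3del minus H4del against H3WT minus H4WT. Points are the 6492 tested probe sets, dark where the wild types passed the test. LEU2 and TRP1 lie at matching ends on the right, while FDH1 and MLS1 lie below 0 for the wild types and above 0 for the mutants.

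Profiles over all 14 arrays were compared with those of the markers as a description, with arrays sharing strain, medium and day. The genes most like LEU2 were NTH1 (Pearson r = 0.942), SDH2 (0.940), RRI1 (0.938), PPM1 (0.937) and NFS1 (0.933). NFS1, a cysteine desulfurase of iron-sulfur cluster assembly, is the annotated gene next to LEU2, and its difference between the wild types was 0.48 ± 0.16 (limma, adjusted p = 0.137). Genes most like TRP1 were JLP1 (0.926), TIR2 (0.924), PAU7 (0.918), SRY1 (0.893) and QDR3 (0.883).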

How the data were processed

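Total RNA of 14 yeast samples was hybridized to Affymetrix YG_S98 arrays. The authors deposited MAS5 signal intensity (per the submitters' processing notes, which give no version). Each array's trimmed mean, leaving out 2% at each end, was 1500.83 to 1501.18, so arrays were not rescaled. Of 9335 probe sets 60 controls were left out. An offset of 16.9, which is the 10th percentile of the signals, was added before log2, and the dimmest 30% of probe sets by mean log2 signal were not tested. Models with 1 mean for each of the 4 groups were fitted to the 14 arrays with limma 3.58.1 (R 4.3.3, lmFit, then eBayes with a mean-variance trend) at 10 residual degrees of freedom. Benjamini-Hochberg adjustment ran over all tested probe sets, with a threshold of 0.05. Other tools were matplotlib 3.10.9, scipy 1.17.1, pandas 2.3.3, numpy 2.4.6 and python 3.11.15. The fit was tested on simulated data with independent noise on each array. That simulation held no day or replicate effect, so it cannot speak to either. Fold values are on the log2(signal + offset) scale and understate changes of dim probe sets.

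Probe sets were named from the platform's annotation, with symbols from the RefSeq assembly R64. A single gene was given for 6504, several for 328 and none for 2443. A gene was read at the brightest tested probe set annotated to it alone (5121 genes). No label states separate cultures, so p-values reflect the spread between arrays, and 3 and 4 arrays limit the precision.

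The comparison, gene lists and tests were chosen with earlier results of these data known. The named genes included, by rule, the 12 with the largest difference each way among those past the threshold without overlap. Also included were all leucine, tryptophan, marker and histone genes, and the 5 genes most like LEU2 and TRP1. Other lists with at least 3 members past the threshold gave their 4 smallest adjusted p. The text prints only part of these genes, so the leucine, tryptophan, marker and histone genes given with values are a selection. Other list members past the threshold, members of the oxygen, glucose, mating-type and mitochondrial lists given with values, the second HIS3 probe set and the PAU probe sets were named after their values were seen.

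Replicate numbers were taken to pair the wild types, because deviations correlated above 0.1 for each of the 3 same-numbered pairs (0.342, 0.268 and 0.501). Other pairs ranged from -0.402 to 0.244, so some of them also lay above 0.1. Only replicate 3 of each shared a day, and the pairing was drawn from the data it was then fitted to. Day 3 held 1 array, H4WT replicate 2, which the fixed day block takes up wholly. That block compares H3 with H4 strains only within day 4, where the tail deletion arrays also enter. Alternatives changed the normalization, offset, filter, arrays used and blocks.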

Additional observations from a re-analysis of the deposited data

Results flagged for a closer look

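Among the named genes, 104 groups of 4 H3WT arrays were examined for a single array far from the others, and 4 were found, where chance gives about 1 in 20. DAN1 read 63.7 on H3WT replicate 3, below the others, and its H4WT arrays were all higher. ARO8, an aromatic aminotransferase, read 9695 on H3WT replicate 4, below the others. ADE2 read 4012 and TAT1 1133.5 on H3WT replicate 3, the first below and the second above the other H3WT arrays.

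For 25 named genes the wild-type difference, H3WT minus H4WT, was unequal to the mutant difference, H3del minus H4del, by limma's test of the difference itself. These genes were chosen for a large wild-type difference, which favours a larger value there, and the mutants also carry tail deletions. The wild-type difference less the mutant difference was positive for SRD1 (1.55), YET2 (1.93), SPO11 (2.30) and CTS1 (0.90). It was most negative for FDH1 (-4.57), DAN1 (-3.30), MLS1 (-3.29) and SSA3 (-3.05). For PDC6 it was -2.31, for BIO4 -2.29, for SNZ1 -2.10 and for SPG4 -2.005. Cell wall, adhesion and glucose-repressed genes followed, with TIR4 at -1.96, ADH2 at -1.94, CAT2 at -1.79, FLO11 at -1.44 and HPF1 at -0.96. The remaining values were -1.89 for SPS2, -1.88 for SUL1, -1.84 for RNR3, -1.61 for THI4, -1.48 for ANS1, -1.39 for GRE1, -1.35 for GDH3 and -1.11 for BIO5.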

How the results depend on the processing

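The count of probe sets past the test in H3WT minus H4WT, 221, was 135 with a filter at the 50th percentile, 100 from the wild-type arrays only, 335 with day as a random block, 511 with the replicate block and 669 without the arrays of day 4. It ranged from 137 to 305 when single arrays were left out, with 137 without H4WT replicate 1 and 138 without H4WT replicate 2. Quantile normalization gave 197, an offset of 1 gave 230, an offset 3 times as large 216, no filter 264 and a fixed day block 247. For H3del minus H4del, 1555 became 2410 with the replicate block and 2336 without day 4. Over the gene lists, 48 members past the test became 91 with the replicate block and 128 without day 4, and 39 to 65 without single arrays. The span of chromosome medians, 0.319, ranged from 0.266 to 0.458 without single arrays, the highest without H4WT replicate 3. Of the 62 named genes past the test the replicate block kept all 62 and added 8, and the fixed day block kept 40. The 22 it lost were GPT2, YGL108C, QCR10, YET2, COG7, OPI10, ROQ1, ICS2, MET17, ARG7, TAT1, SDH2, SDH4, FBP1, NTH1, BIO4, INO4, CHO2, ERG28, CTS1, SPO75 and SRY1. From the wild-type arrays only, 60 of the 62 were bright enough to be tested, 42 passed and 18 did not: YGL108C, COG7, OPI10, ROQ1, MET17, SDH4, NTH1, BIO5, BIO4, INO1, INO4, CHO2, ERG28, PRE4, CTS1, SPS1, HPF1 and TIR2. Leaving out single arrays lost between 4 and 17 of the 62. No named gene changed its sign under these alternatives while past the test. The cause of these changes was not tested. Signal near background limits genes such as SPS2, SPO75 and URA3. The lower group was dim as well for SPO11 (39.7 to 73.2 in H4WT) and DAN1 (63.7 to 88.1 in H3WT), which limits the size of those differences.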

Other observations

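Genes at chromosome ends were counted after the PAU family had been seen to differ, so the choice is not independent of the values. Of the 10 outermost annotated genes of each chromosome end, 159 were tested, 4 were higher in H3WT and 23 were lower, against 65 and 88 of 5121 genes. The lower ones included PAU genes, FDH1, JLP1, SUL1, GDH3, SRY1 and the aryl-alcohol dehydrogenases AAD10 and AAD14, and the list's median was -0.07. Many subtelomeric genes have near-identical copies whose probe sets share transcripts.

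Of 82 tested genes of cytosolic ribosomal proteins, also chosen after seeing the data, none was higher in H3WT and 2, ASC1 and RPL22B, were lower. The share lower was 2.44%, near the 1.72% of all genes, and with the day block none of the 82 passed. The list's median was -0.19 in the fit and -0.23 on day 4.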
